A study of Homo sapiens with 24 samples.

Results

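The genes described here are the replication-dependent histone genes of the HIST1, HIST2, HIST3 and HIST4 clusters, named by the older symbols of the deposited table. The rule took every row with a symbol starting HIST1H, HIST2H, HIST3H or HIST4H and a value above 0 in at least 3 of the 24 libraries. That gave 60 genes of 70 rows so named, in a table of 25365 rows. Of the 10 rows left out, 5 were listed at 0 in every library and 5 were above 0 in 1 or 2 libraries, with a highest value of 0.443. The unit is FPKM, fragments per kilobase of transcript, scaled to the mapped fragments of the library, so levels can be set side by side between genes. By histone type the genes were 5 for H1, 15 for H2A, 18 for H2B, 11 for H3 and 11 for H4. By cluster, 47 belonged to HIST1, 10 to HIST2, 2 to HIST3 and 1 to HIST4.

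The libraries came from PC9 and HCC4006, established lung adenocarcinoma lines with an activating mutation of the growth factor receptor EGFR. Each line had control cells (CTRL) and cells with a knockout of YAP1, a transcriptional co-activator of the Hippo pathway. Each genotype was given the vehicle DMSO, or OT, which is 100 nM osimertinib, an EGFR inhibitor, with 30 nM trametinib, a MEK inhibitor, and was lysed after 24 h. The 8 groups are therefore PC9 CTRL with DMSO, PC9 CTRL with OT, PC9 YAP1 KO with DMSO, PC9 YAP1 KO with OT and the same 4 in HCC4006, with 3 libraries each. The column headers of the table carry "NOTX" where the sample labels say DMSO, and the labels were followed. Replicates were dishes plated in triplicate from 1 control and 1 YAP1 KO population per line, so each p-value measures the spread between dishes. A difference between genotypes is a difference between those populations.

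Replication-dependent histone genes supply the core histones H2A, H2B, H3 and H4 and the linker histone H1 that package newly made DNA, and in dividing cells their mRNA is at its highest in S phase. Their usual mRNA has no intron and no poly(A) tail. It ends just after a short stem-loop that is bound by SLBP, and it is degraded when DNA synthesis stops. Several of these genes also give a longer, spliced or read-through mRNA with a poly(A) tail, which has been described in cells that leave the cycle or differentiate. The libraries were made with an mRNA kit (TruSeq Stranded mRNA), which selects RNA with a poly(A) tail. All values below therefore favour polyadenylated forms, and the stem-loop form that makes up most histone mRNA was largely outside the measurement.

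The stem-loop is shown first because it is the feature that sets the usual 3′ end apart from the form these libraries favour. It was searched in the GENCODE v29 transcripts (GRCh38) as a 6-pair stem that starts with GG, closed over a 4-base loop that starts with TT. It was found in annotated transcripts of 26 of the 60 genes, against 119 of 19702 genes with a protein-coding transcript, or 0.604%. Only 4 versions occurred among the 26, and they are written below with the paired stem in capitals and the loop in lower case.
HIST1H2AC, HIST2H2AA3, HIST2H2BE and HIST3H2A: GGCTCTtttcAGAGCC
HIST1H2BC and HIST1H2BD: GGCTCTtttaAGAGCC
HIST1H4H and HIST4H4: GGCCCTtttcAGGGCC
HIST2H4B: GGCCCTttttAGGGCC
The first was shared by 15 genes, the second by 4, the third by 5 and the fourth by 2. In 19 of the 26 genes an annotated transcript ran at least 100 bases past the stem-loop. The longest run was 1128 bases in HIST1H2AC, 1729 in HIST2H2BE, 1314 in HIST2H4B, 390 in HIST3H2A and 116 in HIST1H2BC. In HIST1H2BD and HIST2H2AA3 the longest run was 39 and 35 bases, and HIST1H2BD had another annotated transcript without the stem-loop. Annotated models of many of the other 34 genes hold the coding part alone, so a stem-loop could not be looked for in them.

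The promoters of 6 genes are shown because they form 3 head-to-head pairs of an H2A and an H2B gene whose changes are compared below. The sequence is that of RefSeq on GRCh38.p14, 150 bases up to the base before the annotated start, written in the direction of transcription. Capitals mark 3 motifs: the TATA box written TATAAA, the CCAAT box, and the octamer written ATTTGCAT. Each was searched as written and as its reverse complement, and none overlaps another.
HIST1H2AC (chr6:26124022-26124171, plus strand): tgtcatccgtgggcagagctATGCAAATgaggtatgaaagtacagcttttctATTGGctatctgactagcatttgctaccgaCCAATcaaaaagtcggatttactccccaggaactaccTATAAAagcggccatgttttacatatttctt
HIST1H2BC (chr6:26123927-26124076, minus strand): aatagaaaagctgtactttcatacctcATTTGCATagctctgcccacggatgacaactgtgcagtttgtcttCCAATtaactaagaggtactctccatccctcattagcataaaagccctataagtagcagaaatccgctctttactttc
HIST2H2AC (chr1:149886768-149886917, plus strand): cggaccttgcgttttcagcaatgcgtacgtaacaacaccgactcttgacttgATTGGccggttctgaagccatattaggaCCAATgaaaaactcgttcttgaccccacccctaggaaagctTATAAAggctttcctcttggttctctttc
HIST2H2BE (chr1:149886683-149886832, minus strand): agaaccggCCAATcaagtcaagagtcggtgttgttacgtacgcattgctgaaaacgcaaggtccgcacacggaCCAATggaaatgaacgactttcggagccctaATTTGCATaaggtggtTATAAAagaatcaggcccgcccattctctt
HIST3H2A (chr1:228457874-228458023, minus strand): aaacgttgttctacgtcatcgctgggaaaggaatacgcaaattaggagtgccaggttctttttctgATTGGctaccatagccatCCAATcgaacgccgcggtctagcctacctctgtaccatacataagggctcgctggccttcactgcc
HIST3H2BB (chr1:228457953-228458102, plus strand): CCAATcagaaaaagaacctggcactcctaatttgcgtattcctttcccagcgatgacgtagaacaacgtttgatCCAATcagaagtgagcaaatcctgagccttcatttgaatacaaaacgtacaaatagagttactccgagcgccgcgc
All 60 genes were matched to RefSeq by symbol or older symbol, and 53 had a promoter entry. TATAAA was present in 52.8% of the 53 windows against 7.05% of the 27305 RefSeq promoter windows of this length. CCAAT was present in 84.9% against 24.4%, in every window of the H1, H2A, H2B and H3 genes and in 1 of the 9 H4 windows. The octamer ATTTGCAT, the motif read by POU factors such as OCT1, was present in 32.1% against 0.985%, and in 12 of the 16 H2B windows. A match describes the letters and is not a measured binding site.

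Few of the 60 genes carried most of the signal. Taking all 24 libraries, 5 genes gave 71.9% of the summed FPKM, and HIST1H2BK alone gave 31.8%. Mean FPKM over the 24 libraries was 83.2 for HIST1H2BK, 33.1 for HIST1H1C, 31.7 for HIST1H2BD, 24.4 for HIST3H2A and 15.8 for HIST1H2AC. HIST1H1C encodes the linker histone H1.2, HIST1H2BK and HIST1H2BD encode H2B proteins, and HIST3H2A and HIST1H2AC encode H2A proteins. HIST2H2AA3, an H2A gene, followed closely with 15.7, and the ranges of HIST1H2AC and HIST2H2AA3 over the libraries overlap widely. These means pool groups of different makeup. HIST1H2BK had the highest mean in all 8 groups, but its share of the group's summed FPKM ran from 57.3% in PC9 YAP1 KO with DMSO to 20.7% in HCC4006 YAP1 KO with OT. HIST1H1C was second in the 4 PC9 groups, while in HCC4006 CTRL with OT it came behind HIST3H2A, HIST1H2BD and HIST2H2AA3. These 6 were the genes with a mean of at least 10, while 35 genes had a mean under 1 and 20 genes were above 0 in every library.

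**Figure D1:**
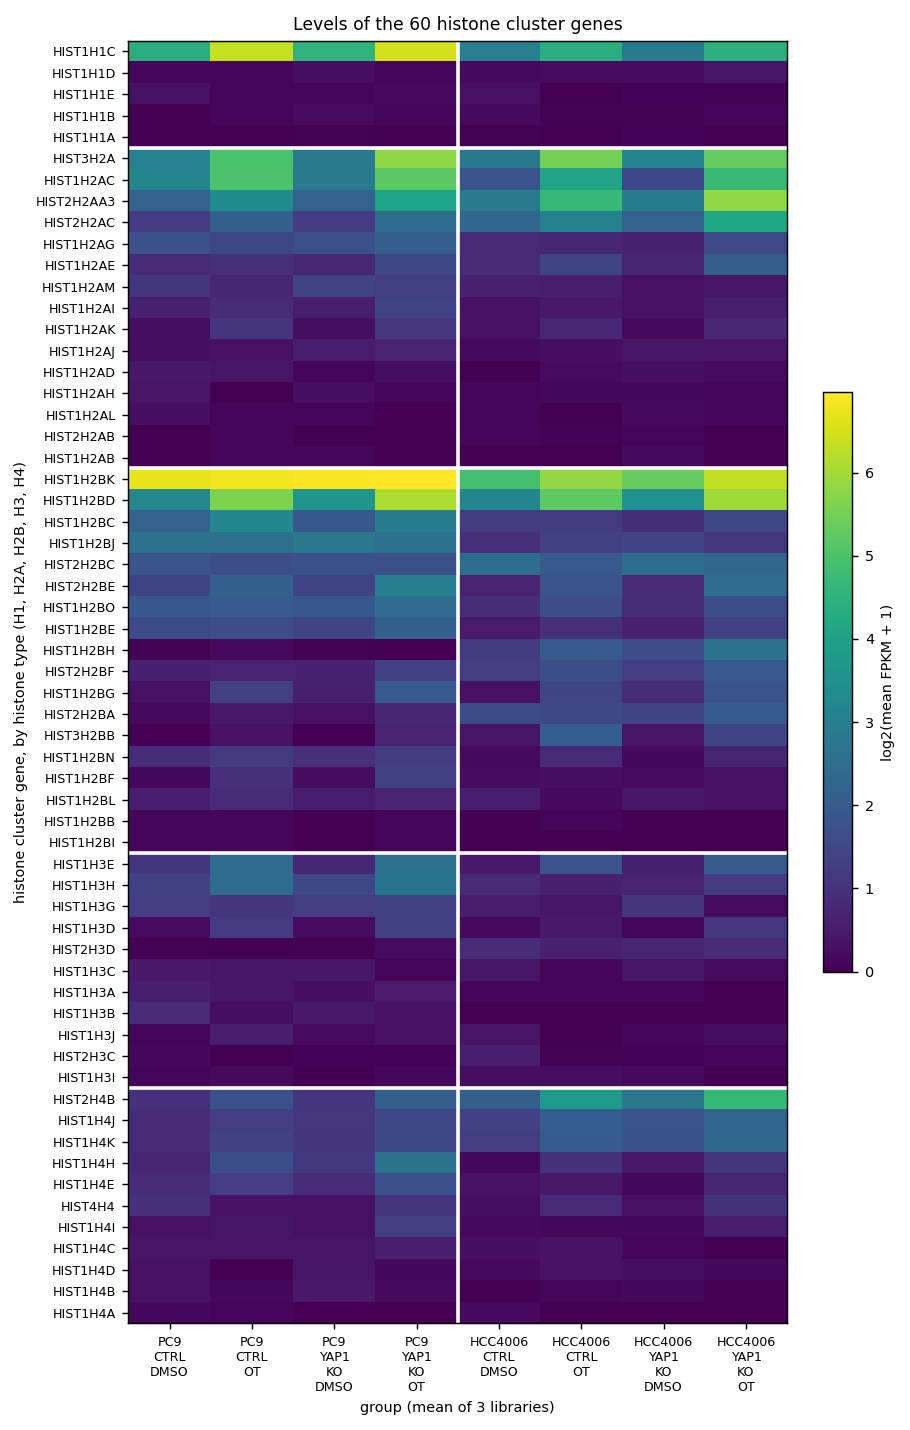
Mean level of each of the 60 histone cluster genes in the 8 groups, as log2(mean FPKM + 1) on the colour scale, with genes ordered by mean within each histone type (rows) and groups in columns (mean of 3 libraries). A few genes per type are bright, and the columns with OT are brighter than the DMSO columns for most of them; the H3 genes and 4 of the 5 H1 genes stay dark.

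For the tests a gene was kept in a line when at least 3 of its 12 libraries had an FPKM of at least 1. This kept 31 of the 60 genes in PC9 and 27 in HCC4006, of which 23 were kept in both, 8 in PC9 only and 4 in HCC4006 only. The third-highest FPKM just inside this limit was 1.19 for HIST1H2BF and 1.37 for HIST1H2BN in PC9, and 1.03 for HIST1H3H and 1.09 for HIST4H4 in HCC4006. Just outside it lay HIST1H4I with 0.880 and HIST4H4 with 0.835 in PC9, and HIST2H3D with 0.950 and HIST1H3G with 0.914 in HCC4006.

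The other 25 genes were kept in neither line. They were the H1 genes HIST1H1A, HIST1H1B, HIST1H1D and HIST1H1E, the H2A genes HIST1H2AB, HIST1H2AD, HIST1H2AH, HIST1H2AJ, HIST1H2AL and HIST2H2AB, and the H2B genes HIST1H2BB, HIST1H2BI and HIST1H2BL. The H3 genes among them were HIST1H3A, HIST1H3B, HIST1H3C, HIST1H3I, HIST1H3J, HIST2H3C and HIST2H3D, and the H4 genes were HIST1H4A, HIST1H4B, HIST1H4C, HIST1H4D and HIST1H4I. No library value among them exceeded 2.1 (HIST1H4I, PC9 YAP1 KO with OT), and their means over the 24 libraries reached at most 0.437. Of these 25 genes, 14 were listed at 0 in at least 12 libraries. A listed 0 can be a failed estimate rather than a count of 0.

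Near-identical copies limit how far single genes can be told apart. Shared sequence was measured as the percentage of a gene's 50-base stretches that occur in any other GENCODE gene. The gene in brackets is the one that shares the most stretches. It was 100.0% for HIST2H2AA3 (with HIST2H2AA4), 97.2% for HIST2H4B (with HIST2H4A), 100.0% for HIST1H4K and 81.2% for HIST1H4J (with each other), and 74.1% for HIST1H2BK (with H2BFS). The table has no row for HIST2H2AA4, HIST2H4A or H2BFS, so the value of the listed copy may hold reads of both. Over all 60 genes, 6 had more than 90% and 13 more than 50% of their stretches in another gene. HIST1H4J and HIST1H4K had similar values in most libraries and are not 2 separate observations. HIST1H3D and HIST1H2AD had 100.0% and 98% of their stretches in other genes, most often in the annotated gene AL031777.3. The kit marks strand, but whether the counting used it is not stated, so reads of overlapping genes are uncertain too.

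Facts of the whole series that bear on these values are few. Depth per library is not given with the FPKM, so no counting interval can be set, and the precision shown is the spread between the 3 dishes. Summed FPKM per library ran from 507120 to 660459 and was lower with OT than with DMSO in both lines. YAP1 mRNA, the targeted gene, was 42.9 ± 0.415 in PC9 CTRL and 12.1 ± 0.398 in PC9 YAP1 KO under DMSO (mean FPKM ± SD, n = 3), and 18.2 ± 1.62 against 4.24 ± 0.344 in HCC4006. The 6 epithelial markers summed to between 3053 and 9582 FPKM in every library, while 9 of 11 markers of other cell types stayed under 1 FPKM throughout. The other two, CD68 and COL1A1, reached 108 and 4.59. In a bulk library, fewer cells with an mRNA and less of that mRNA per cell cannot be told apart.

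The direction of calls over all genes depended on the scaling in some comparisons. Without rescaling, 55.1% of the genes called with OT in HCC4006 CTRL were called higher. This became 66.6% with all libraries brought to an equal FPKM sum, with the median change of all genes moving from 0.09 to 0.28 on the log2 scale. Other shifts of over 10 percentage points came in the genotype comparison in HCC4006, with 51.5% becoming 61.6% under DMSO (same sum) and 62.3% becoming 50.5% under OT (median-of-ratios). In PC9 under OT, 53.0% became 42.6% (median-of-ratios). For the interaction, 48.9% became 60.7% in PC9 (same sum) and 56.1% became 45.7% in HCC4006 (median-of-ratios). For the difference in OT response between the lines, 60.2% became 72.5% (same sum) or 47.4% (median-of-ratios).

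The mRNA of many histone cluster genes was higher with OT than with DMSO in both lines. Summed over the 60 genes, FPKM went from 193 ± 6.52 under DMSO to 375 ± 16.7 with OT in PC9 CTRL and from 92.7 ± 4.03 to 261 ± 18.7 in HCC4006 CTRL (mean ± SD, n = 3). In YAP1 KO cells it went from 211 ± 3.91 to 471 ± 21.8 in PC9 and from 112 ± 3.87 to 380 ± 15.2 in HCC4006. In all 4 settings each OT library lay above each DMSO library. These sums are a description without a test.

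By type, the H1 sum in CTRL cells rose from 20.4 ± 2.94 to 80.3 ± 1.95 FPKM in PC9 and from 7.78 ± 0.920 to 19.9 ± 5.28 in HCC4006, and nearly all of it was HIST1H1C. The H2A sum was 26.8 ± 2.22 under DMSO and 80.6 ± 1.98 with OT in PC9, and 21.6 ± 1.14 and 97.0 ± 3.80 in HCC4006. The H2B sum was 134 ± 6.48 and 191 ± 16 in PC9, and 51.9 ± 2.99 and 117 ± 11.9 in HCC4006. In CTRL cells H1 gained the most relative to its DMSO level in PC9 (3.93-fold) and H2A in HCC4006 (4.50-fold), while in YAP1 KO cells H2A gained the most in both lines (5.04-fold in PC9 and 6.27-fold in HCC4006). The H3 sum was 6.11 ± 0.705 and 12.8 ± 0.945 in PC9 but 3.99 ± 0.756 and 4.63 ± 0.934 in HCC4006, where the ranges of the DMSO and OT libraries overlapped. The H4 sum was 6.25 ± 0.755 and 9.89 ± 0.0976 in PC9, and 7.42 ± 1.46 and 21.9 ± 1.81 in HCC4006.

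Tested gene by gene in PC9 CTRL, 16 of the 31 genes kept rose with OT and none fell at an adjusted p under 0.05. Over all 12685 genes tested, 32.0% were called higher and 40.9% lower. The median change was 0.73 for the 31 histone genes and -0.04 for all genes, on the scale of log2(FPKM + 1), which understates the change of low genes. In PC9 YAP1 KO, 23 rose and none fell, against 36.9% called higher and 41.4% called lower among all genes, with medians of 0.86 and -0.02. The absence of falls rests on limma at the adjusted threshold, and all 16 and 23 genes with an unadjusted p under 0.05 were those called. In HCC4006 CTRL, 20 of the 27 genes kept rose and 1 fell, against 45.0% and 36.6%, with medians of 0.77 and 0.09. In HCC4006 YAP1 KO, 22 rose and none fell, against 46.4% and 36.5%, with medians of 0.91 and 0.11, and again the 22 were all those with an unadjusted p under 0.05.

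A gene that entered the test only through its OT libraries was selected towards a rise, so these counts are not support on their own. In PC9, 6 of the 31 genes had no DMSO library at 1 FPKM or more (HIST1H2AI, HIST1H2AK, HIST1H2BF, HIST1H2BG, HIST1H3D and HIST2H2BF), and in HCC4006 5 of the 27 did (HIST1H2BE, HIST1H3E, HIST1H4H, HIST3H2BB and HIST4H4). HIST1H2AE and HIST1H3E in PC9 had some such DMSO libraries but fewer than 3, so they also needed OT libraries to be kept. The same held in HCC4006 for HIST1H2AE, HIST1H2AG, HIST1H2BC, HIST1H2BG, HIST1H2BO, HIST1H3H and HIST2H2BE. Among genes with at least 3 DMSO libraries at 1 FPKM or more, 11 of 23 rose in PC9 CTRL and 15 of 23 in PC9 YAP1 KO, with no falls. In HCC4006, 12 of 15 such genes rose and 1 fell in CTRL, and 13 of 15 rose in YAP1 KO.

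In CTRL cells 11 genes rose in both, which is 68.8% of those raised in PC9 and 55.0% of those raised in HCC4006. Over all genes tested the same shares were 73.5% and 50.7%, so the overlap was near that of genes in general. They were HIST1H1C, HIST1H2AC, HIST1H2BD, HIST1H2BG, HIST1H3E, HIST1H4H, HIST2H2AA3, HIST2H2AC, HIST2H2BE, HIST2H4B and HIST3H2A. Of these, HIST1H2BG in PC9 and HIST1H3E and HIST1H4H in HCC4006 were kept only through OT libraries. HIST1H3E in PC9 and HIST1H2BG and HIST2H2BE in HCC4006 had fewer than 3 DMSO libraries at 1 FPKM, so they also needed OT libraries. Their calls there are likewise not support. In YAP1 KO cells 16 genes rose in both lines, 69.6% of the PC9 and 72.7% of the HCC4006 genes, against 75.6% and 58.2% over all genes. Of the 16, HIST1H2AE, HIST1H2BG, HIST1H3E and HIST2H2BF in PC9 had fewer than 3 DMSO libraries at 1 FPKM. The same held in HCC4006 for HIST1H2AE, HIST1H2AG, HIST1H2BC, HIST1H2BE, HIST1H2BG, HIST1H2BO, HIST1H3E and HIST2H2BE. These genes needed OT libraries to be kept, so this overlap is not support on its own.

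**Figure D2:**
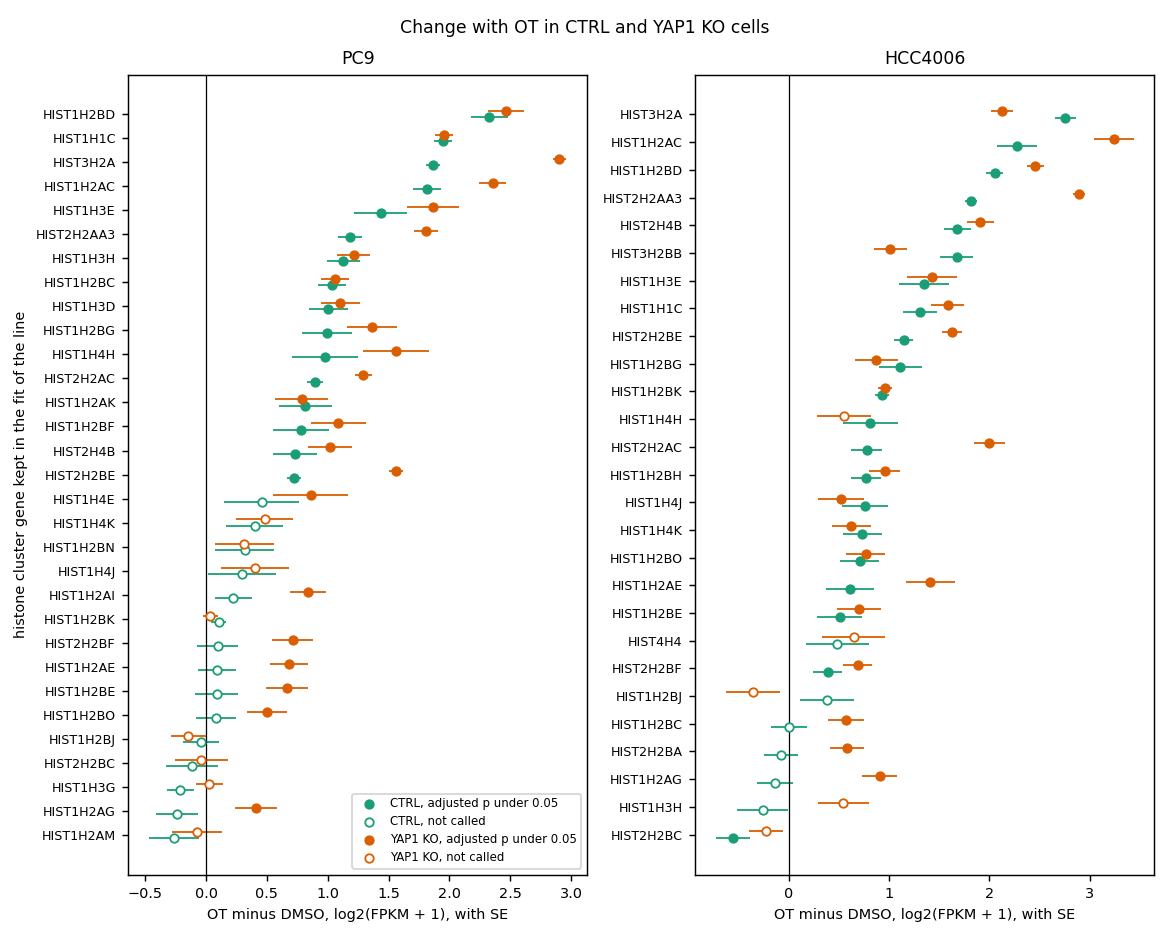
Change with OT, as OT minus DMSO on the log2(FPKM + 1) scale with its standard error (x axis), for the histone cluster genes kept in PC9 (left) and HCC4006 (right), in CTRL and YAP1 KO cells; filled points have an adjusted p under 0.05. HIST1H2BD, HIST1H2AC and HIST3H2A stand near the top in both lines, and HIST2H2BC is the one filled point left of 0.

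Among the linker histones HIST1H1C was the one gene kept. It gave 17.6, 19.3 and 23.5 FPKM in the 3 DMSO libraries of PC9 CTRL and 78.1, 80.1 and 81.9 with OT. In HCC4006 CTRL the values were 7.05, 8.37 and 6.26 and 13.7, 22 and 23.6. The DMSO and OT libraries did not overlap in either line, and 1 OT library of HCC4006 was lower than the other two. The change was 1.95 ± 0.07 in PC9 (log2 ± SE, adjusted p = 3.3e-10), while HCC4006 gave 1.31 ± 0.16 (adjusted p = 1.1e-05), and it was 1.96 ± 0.07 and 1.59 ± 0.16 in the YAP1 KO cells.

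Among the H2A genes HIST3H2A, HIST1H2AC and HIST2H2AA3 changed most. HIST3H2A, which sits outside the large cluster in a small group on chromosome 1, went from 7.4, 7.11 and 8.09 to 29.9, 29.2 and 31.2 FPKM in PC9 CTRL. In HCC4006 CTRL it went from 4.83, 7.4 and 5.37 to 43.7, 46.2 and 44.5. Every OT library was several times higher than every DMSO library of its line, and the changes were 1.87 ± 0.06 (adjusted p = 4.9e-11) and 2.76 ± 0.11 (adjusted p = 1.6e-10). HIST1H2AC had 8.18, 8.83 and 7.74 FPKM with DMSO and 33.1, 31.1 and 30.3 with OT in PC9 CTRL. Its HCC4006 CTRL values were 1.97, 2.45 and 3.0 and 13.8, 16.7 and 16.8, lower in both arms than in PC9. The changes were 1.82 ± 0.11 (adjusted p = 2.1e-08) and 2.28 ± 0.20 (adjusted p = 3.4e-07).

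HIST2H2AA3, whose reads may include those of its copy HIST2H2AA4, went from 3.0, 4.28 and 3.72 to 9.35, 9.65 and 9.51 FPKM in PC9 CTRL. It went from 6.09, 6.2 and 6.45 to 22, 26 and 25.7 in HCC4006 CTRL. Its neighbour HIST2H2AC went from 1.26, 1.36 and 1.32 to 3.44, 3.23 and 3.25 in PC9 CTRL. In HCC4006 CTRL the values of HIST2H2AC were more scattered, 5.1, 3.79 and 2.94 against 7.73, 8.14 and 6.29, and still did not overlap. The changes were 1.18 ± 0.10 and 1.81 ± 0.06 for HIST2H2AA3 (adjusted p = 4.1e-07 and 4.5e-11), and 0.90 ± 0.07 and 0.78 ± 0.15 for HIST2H2AC (adjusted p = 1.3e-07 and 0.00051). HIST1H2AG, another H2A gene, gave values in CTRL cells that did not pass the test in either line, -0.24 in PC9 and -0.13 in HCC4006.

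Among the H2B genes the response was uneven. HIST1H2BD had the largest rise with OT in PC9 CTRL, from 9.5, 7.34 and 9.4 to 44.9, 45.4 and 52.9 FPKM. In HCC4006 CTRL it went from 7.82, 9.01 and 7.52 to 32.8, 38.7 and 39.1. The lines had similar HIST1H2BD levels with DMSO, while each PC9 library with OT was above each HCC4006 library with OT. The changes were 2.33 ± 0.15 (adjusted p = 3.4e-08) and 2.05 ± 0.09 (adjusted p = 4e-10). HIST2H2BE, a low gene, went from 1.47, 1.87 and 1.59 to 3.36, 3.39 and 3.34 in PC9 CTRL and from 0.446, 0.574 and 0.787 to 2.31, 2.74 and 2.55 in HCC4006 CTRL. Its replicates were tight and the arms did not overlap, with changes of 0.73 ± 0.06 (adjusted p = 2.5e-07) and 1.15 ± 0.10 (adjusted p = 3.3e-07). In HCC4006 fewer than 3 DMSO libraries of HIST2H2BE reached 1 FPKM, so it needed OT libraries to be kept there.

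HIST1H2BK, the most abundant of the 60 genes, differed between the lines. In PC9 CTRL it gave 103, 103 and 108 FPKM with DMSO and 103, 111 and 125 with OT, which overlap, and the change of 0.10 ± 0.06 did not pass the test (adjusted p = 0.15). After rescaling the libraries it was 0.16 with an adjusted p of 0.020 (same sum) or 0.041 (median-of-ratios). In HCC4006 CTRL it gave 27.6, 28.9 and 30.0 with DMSO and 49.1, 58.6 and 60.5 with OT, a change of 0.93 ± 0.07 (adjusted p = 7.6e-08). HIST1H2BJ, an H2B gene for which a polyadenylated form is also known, showed no call with OT in any of the 4 tests. In PC9 CTRL it gave 6.27, 3.8 and 5.47 FPKM with DMSO and 4.75, 4.7 and 5.33 with OT. In HCC4006 CTRL it gave 0.53, 1.52 and 0.685 with DMSO and 0.972, 1.32 and 2.14 with OT, so the arms overlapped in both lines. HIST2H2BC, annotated by RefSeq as a pseudogene, was the one called fall. It gave 3.07, 5.3 and 5.93 with DMSO and 3.1, 2.52 and 2.93 with OT in HCC4006 CTRL, where the lowest DMSO library lay within the OT values. The change was -0.55 ± 0.17 (adjusted p = 0.0097), and -0.37 with an adjusted p of 0.057 after rescaling to the same sum.

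The H3 and H4 genes were low. HIST1H3E, an H3 gene, went from 1.81, 0.69 and 0.671 to 3.81, 6.03 and 3.63 FPKM in PC9 CTRL and from 0.952, 0.233 and 0 to 2.24, 2.62 and 2.4 in HCC4006 CTRL. HIST1H3H, also H3, went from 1.74, 1.76 and 1.07 to 4.87, 3.99 and 4.58 in PC9 CTRL and gave 1.03, 0.893 and 0.449 and 0.919, 0 and 0.69 in HCC4006 CTRL. So HIST1H3E was higher with OT in both lines (1.43 and 1.35, adjusted p = 6.8e-05 and 0.00028). HIST1H3E was kept only through its OT libraries in HCC4006 and had fewer than 3 DMSO libraries at 1 FPKM in PC9. Neither call is support on its own. HIST1H3H was called in PC9 (1.13, adjusted p = 1.1e-05) but not in HCC4006 (-0.26, adjusted p = 0.35). HIST2H4B, an H4 gene counted with its copy HIST2H4A, went from 0.764, 0.931 and 1.21 to 2.71, 1.4 and 2.84 in PC9 CTRL and from 3.21, 4.08 and 2.69 to 12.3, 12.2 and 13.7 in HCC4006 CTRL. The arms did not overlap in either line, and the changes were 0.73 ± 0.18 (adjusted p = 0.0032) and 1.68 ± 0.13 (adjusted p = 1.7e-07). HIST4H4, an H4 gene with a known polyadenylated form, had values between 0 and 1.87 FPKM and no call with OT in HCC4006, the one line where it was kept.

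The remaining genes that passed the test with OT were low, and were H2A, H2B, H3 and H4 genes. In PC9 CTRL they were HIST1H2AK, HIST1H2BC, HIST1H2BF, HIST1H2BG, HIST1H3D and HIST1H4H, with changes from 0.78 for HIST1H2BF to 1.04 for HIST1H2BC. In HCC4006 CTRL they were HIST1H2AE, HIST1H2BE, HIST1H2BG, HIST1H2BH, HIST1H2BO, HIST1H4H, HIST1H4J, HIST1H4K, HIST2H2BF and HIST3H2BB, with changes from 0.39 for HIST2H2BF to 1.67 for HIST3H2BB. HIST1H2BG, for instance, gave 0.486, 0 and 0.24 FPKM with DMSO and 0.907, 1.34 and 2.25 with OT in PC9 CTRL, and 0.255, 0.25 and 0.251 and 1.71, 1.4 and 2.06 in HCC4006 CTRL. In PC9 HIST1H2AK, HIST1H2BF, HIST1H2BG and HIST1H3D were kept only through OT libraries, and in HCC4006 HIST1H2BE, HIST1H4H and HIST3H2BB were. Their calls there are not support on their own. In HCC4006 HIST1H2AE, HIST1H2BG and HIST1H2BO had fewer than 3 DMSO libraries at 1 FPKM and also needed OT libraries, so the same holds for them. In YAP1 KO cells the changes over all genes kept ran from -0.14 to 2.90 in PC9 and from -0.36 to 3.24 in HCC4006, highest for HIST3H2A in PC9 and HIST1H2AC in HCC4006 (2.90 and 3.24).

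A list of 9 genes with a known polyadenylated transcript was also followed: HIST1H1C, HIST1H2AC, HIST1H2BC, HIST1H2BD, HIST1H2BJ, HIST1H2BK, HIST2H2BE, HIST3H2A and HIST4H4. With OT, 6 of the 8 kept in PC9 rose in CTRL and 6 in YAP1 KO, and 6 of the 9 kept in HCC4006 rose in CTRL and 7 in YAP1 KO, with no falls. The median change was 1.43 in PC9 CTRL and 1.15 in HCC4006 CTRL, against -0.04 and 0.09 for all genes tested. The list was drawn up with earlier results of these data known and holds the 5 most abundant of the 60 genes, so it is not set against the other histone genes. For the same reason its counts and medians beside those of all genes are a description and not support.

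**Figure D3:**
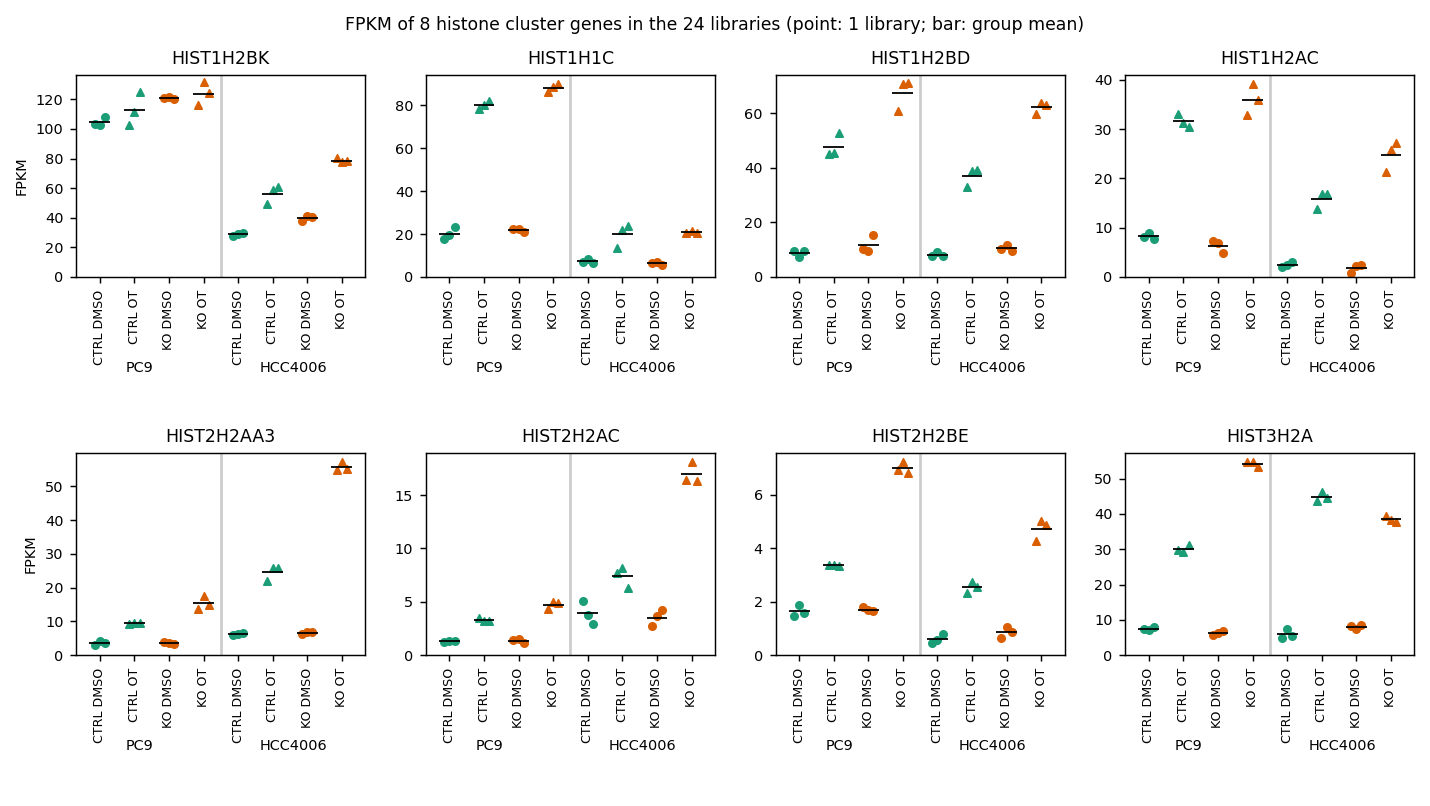
FPKM (y axis, linear, from 0) of 8 histone cluster genes in each of the 24 libraries, by group along the x axis, with CTRL in green, YAP1 KO in orange, DMSO as circles, OT as triangles and group means as bars. All but HIST1H2BK in PC9 are higher with OT than with DMSO, and HIST2H2AA3, HIST2H2AC and HIST2H2BE are highest in YAP1 KO cells with OT within each line.

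Without the drugs, the test called few of these genes between YAP1 KO and CTRL cells. The summed FPKM of the 60 genes was still higher in each YAP1 KO library than in each CTRL library of its line. It ran from 187 to 200 in CTRL and from 207 to 215 in YAP1 KO in PC9. In HCC4006 it ran from 90.2 to 97.3 and from 107 to 114. Without HIST1H2BK the sums overlapped in PC9 but not in HCC4006. No test was made on the sums. In PC9 under DMSO, 1 of 31 genes was higher and 3 were lower in YAP1 KO, against 19.8% higher and 20.0% lower among all genes. The one higher gene was HIST1H2BK with 103, 103 and 108 FPKM in CTRL and 121, 122 and 120.1 in YAP1 KO, a difference of 0.21 ± 0.06 (adjusted p = 0.019). The 3 lower genes were HIST1H2AC, HIST1H2BC and HIST3H2A, with differences of -0.36, -0.34 and -0.21 (adjusted p = 0.023, 0.035 and 0.013). Each of these 4 calls was lost when one or another DMSO library was left out. The 4 calls became 1 without CTRL replicate 2, 2 without CTRL replicate 1 or without YAP1 KO replicate 1 or 3, and 3, of which 2 were higher, without CTRL replicate 3.

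In HCC4006 under DMSO, 4 of 27 genes were higher in YAP1 KO and none was lower at the adjusted threshold of limma, against 9.20% higher and 8.65% lower among all genes; 7 genes had an unadjusted p under 0.05. HIST1H2BK rose from 27.6, 28.9 and 30.0 to 37.8, 41.1 and 40.7 FPKM, a difference of 0.45 ± 0.07 (adjusted p = 0.00094). HIST2H4B rose from 3.21, 4.08 and 2.69 to 4.71, 6.8 and 5.78, a difference of 0.65 ± 0.13 (adjusted p = 0.0065). HIST1H2BK was thus the one gene higher in YAP1 KO in both lines. The other two, HIST3H2A (0.42, adjusted p = 0.018) and HIST1H2BD (0.34, adjusted p = 0.019), each lost the call without any one of 4 of the 6 DMSO libraries (CTRL replicates 1 and 3 and YAP1 KO replicate 1 for both, and YAP1 KO replicate 3 for HIST3H2A or 2 for HIST1H2BD). The 4 calls became 2 without CTRL replicate 3 or without YAP1 KO replicate 1.

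With OT the genotypes differed in more of these genes. In PC9 with OT, 13 of 31 genes were higher in YAP1 KO and 1 was lower, against 28.5% higher and 25.2% lower among all genes, with a median difference of 0.38 for the histone genes and 0.02 for all. Without YAP1 KO OT replicate 2 the 14 calls became 9. HIST2H2BF reached 1 FPKM in PC9 only in YAP1 KO with OT (1.44, 1.61 and 1.40). HIST1H2AE, HIST1H2AI and HIST1H2BG were among those that fell short of 3 PC9 libraries at 1 FPKM without that group. Genes kept in this way were selected towards a higher YAP1 KO value, so the PC9 count is not support on its own. In HCC4006 with OT, 11 of 27 were higher and 1 lower, against 27.2% and 16.4%, with medians of 0.34 and 0.06. In both lines 6 genes were higher, HIST1H2AE, HIST1H2AG, HIST1H2BD, HIST2H2AA3, HIST2H2AC and HIST2H2BE, which is 46.2% of the 13 and 54.5% of the 11, against 34.8% and 35.3% over all genes. HIST1H2BD in PC9 (0.49, adjusted p = 0.016) missed the threshold without CTRL OT replicate 1 or YAP1 KO OT replicate 2 or 3 (adjusted p of at most 0.052). HIST1H2AG (0.60, adjusted p = 0.011) did so without CTRL OT replicate 2 or YAP1 KO OT replicate 3 (adjusted p = 0.051 and 0.052). Among the other calls in PC9, HIST1H4H had the largest difference (1.03), with 2.58, 1.59 and 2.33 FPKM in CTRL and 6.28, 4.1 and 6.02 in YAP1 KO, and a pseudocount of 0.1 ended its call (adjusted p = 0.16). The one lower gene was HIST1H2BC (-0.32, adjusted p = 0.035), which lost the call without CTRL OT replicate 1 or 2 or YAP1 KO OT replicate 1 or 2 (adjusted p from 0.068 to 0.15). In HCC4006, HIST2H4B was higher in YAP1 KO (22.7, 28.2 and 22.1 FPKM with OT, a difference of 0.88) and HIST3H2BB was the one lower gene.

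The test of whether OT acted differently in the 2 genotypes is the interaction, the OT change in YAP1 KO minus that in CTRL. It called 5 of 31 genes positive and none negative in PC9, against 13.2% and 13.8% of all genes, with 10 genes at an unadjusted p under 0.05. In HCC4006 it called 6 of 27 positive and 1 negative, against 10.5% and 8.18%, and these 7 calls became 4 without CTRL OT replicate 1. HIST1H2AC, HIST2H2AA3, HIST2H2AC and HIST2H2BE were positive in both lines, which is 80.0% of the 5 and 66.7% of the 6. Over all genes called positive, the shares positive in both lines were 24.2% of the PC9 and 29.5% of the HCC4006 genes. HIST2H2AC has 30.5% of its 50-base stretches in other genes, most often in HIST2H2AA4, the copy of HIST2H2AA3. It is also the head-to-head neighbour of HIST2H2BE, so these genes may not be separate observations. The HCC4006 calls of HIST1H2AC and HIST2H2BE were among those that single libraries and settings ended, as given with their values below.

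HIST2H2AA3 with OT gave 13.6, 17.4 and 15 FPKM in PC9 YAP1 KO, above the 3 CTRL libraries given before, and 54.9, 57.2 and 55.1 in HCC4006 YAP1 KO. Under DMSO the YAP1 KO libraries of PC9 gave 4.02, 3.51 and 3.44, and those of HCC4006 gave 6.34, 6.73 and 6.84, close to CTRL. The interaction was 0.62 ± 0.14 in PC9 (adjusted p = 0.0066), while HCC4006 gave 1.08 ± 0.08 (adjusted p = 7.4e-06). HIST2H2AC with OT gave 4.33, 4.97 and 4.93 in PC9 YAP1 KO and 16.4, 18.1 and 16.3 in HCC4006 YAP1 KO. With DMSO the YAP1 KO cells gave 1.4, 1.5 and 1.14 in PC9, against 2.72, 3.66 and 4.2 in HCC4006. Its interaction was larger in HCC4006, 1.22 ± 0.22 (adjusted p = 0.0023), than in PC9, 0.40 ± 0.09 (adjusted p = 0.0091); that difference between the lines was not tested.

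HIST2H2BE with OT gave 6.93, 7.22 and 6.81 FPKM in PC9 YAP1 KO and 4.28, 5.03 and 4.87 in HCC4006 YAP1 KO. Under DMSO its YAP1 KO values were 1.79, 1.69 and 1.63 for PC9, against 0.65, 1.04 and 0.882 for HCC4006. The interaction was 0.84 ± 0.08 in PC9 (adjusted p = 2.1e-05), while HCC4006 gave 0.48 ± 0.14 (adjusted p = 0.032). The HCC4006 call was lost without any one of 6 libraries, CTRL DMSO replicate 3, CTRL OT replicate 1, YAP1 KO DMSO replicate 1 or 3 and YAP1 KO OT replicate 2 or 3 (adjusted p from 0.053 to 0.078), and with median-of-ratios scaling (adjusted p = 0.057). HIST1H2AC in YAP1 KO went from 7.29, 6.78 and 4.8 to 32.8, 39.1 and 35.9 in PC9 and from 0.853, 2.15 and 2.4 to 21.2, 25.7 and 27.1 in HCC4006. Its interaction was 0.54 ± 0.16 in PC9 (adjusted p = 0.024), while HCC4006 gave 0.96 ± 0.28 (adjusted p = 0.033). Its DMSO values were lower in all YAP1 KO libraries than in CTRL in PC9 and overlapped in HCC4006. The interaction missed the threshold in PC9 without CTRL DMSO replicate 2, CTRL OT replicate 3 or YAP1 KO OT replicate 2 (adjusted p from 0.053 to 0.058). In HCC4006 it did so without CTRL DMSO replicate 2 or 3, CTRL OT replicate 1 or YAP1 KO OT replicate 2 or 3 (adjusted p from 0.057 to 0.076), and without the filter on low values (adjusted p = 0.055). In HCC4006 a pseudocount of 0.1 also ended the calls of HIST1H2AC and HIST2H2BE (adjusted p = 0.075 and 0.32).

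The interaction of HIST3H2A had opposite signs in the 2 lines. With OT it gave 54.7, 54.8 and 53.2 FPKM in PC9 YAP1 KO, above all CTRL libraries, and 39.3, 38.3 and 37.8 in HCC4006 YAP1 KO, below all CTRL libraries. Under DMSO its YAP1 KO values were 5.84, 6.36 and 7.0 for PC9, against 8.17, 7.39 and 8.62 for HCC4006. The interaction was 1.04 ± 0.08 in PC9 (adjusted p = 4.3e-06), while HCC4006 gave -0.63 ± 0.15 (adjusted p = 0.012). HIST1H2AG, which had no call with OT in CTRL cells, gave 0.828, 0.50 and 0.349 and 2.24, 1.58 and 1.91 in HCC4006 YAP1 KO with DMSO and OT, and its interaction there was 1.04 ± 0.25 (adjusted p = 0.014). The last of the HCC4006 calls, HIST1H2BD at 0.40 (adjusted p = 0.040), was lost without any one of 8 of the 12 libraries, CTRL DMSO replicate 1 or 2, CTRL OT replicate 1, YAP1 KO DMSO replicate 1 or 3 and each YAP1 KO OT replicate (adjusted p from 0.056 to 0.093).

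The 2 lines also differed before treatment. In CTRL cells with DMSO, 8 of the 35 genes kept over all 24 libraries were higher in HCC4006 and 15 were lower, against 39.2% higher and 43.4% lower among all 13996 genes. The histone shares were 22.9% and 42.9%. Of the 7 HIST2 genes kept, 6 were higher and 1 lower in HCC4006, and of the 25 HIST1 genes kept, 1 was higher and 12 lower. The genes lowest in HCC4006 relative to PC9 were HIST1H2BK, HIST1H2BJ, HIST1H2AC and HIST1H1C, with differences of -1.82, -1.71, -1.42 and -1.36 on the log2 scale. HIST2H2BA, a second RefSeq pseudogene, HIST1H2BH, HIST2H4B and HIST2H2AC were the highest in HCC4006 relative to PC9 (1.38, 1.13, 1.13 and 1.07). Of the 50-base stretches of HIST2H2BA, 73.6% occur in other genes, most often in HIST2H2BF. HIST1H2BH gave 1.67, 1.36 and 0.822 FPKM in HCC4006 and 0.0883, 0 and 0 in PC9, without overlap.

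The OT response of CTRL cells was tested between the lines for the same 35 genes. It was larger in HCC4006 for 8 and smaller for 5, against 39.3% and 26.0% of all genes. HIST1H2BK was among the 8, with a difference of 0.83 ± 0.10 (adjusted p = 3.8e-07), as were HIST3H2A (0.89), HIST2H4B (0.95, adjusted p = 0.054 with a pseudocount of 0.1) and HIST2H2AA3 (0.63). Among those larger in HCC4006 the largest difference was that of HIST3H2BB, an H2B gene listed at 0, 0 and 0 with DMSO and 0.551, 0.0309 and 0.199 with OT in PC9 CTRL and at 0.248, 0.485 and 0.244 and 2.99, 3.4 and 3.24 in HCC4006 CTRL (1.36 ± 0.21, adjusted p = 1.6e-05). HIST3H2BB was kept only through OT libraries of HCC4006, so this call is not support on its own. HIST1H3H (-1.39), HIST1H2BC (-1.04) and HIST1H1C (-0.64) responded less in HCC4006, and the difference of HIST1H3H was the largest in size of the 35. HIST4H4 was called as well (1.11, adjusted p = 0.031), but its FPKM stayed under 2 and it needed OT libraries to be kept. The call was lost without HCC4006 CTRL OT replicate 1 (adjusted p = 0.11), the library with its 1.79, and without PC9 CTRL DMSO replicate 2, PC9 CTRL OT replicate 2 or HCC4006 CTRL DMSO replicate 3 (adjusted p from 0.071 to 0.081).

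The head-to-head pairs shown above differed in whether both genes moved. RefSeq places 11 pairs of these 60 genes next to each other on opposite strands and transcribed apart. In each of the 3 pairs shown the promoter windows overlap. HIST2H2AC and HIST2H2BE rose together in all 4 OT tests, with changes of 0.90 and 0.73 in PC9 CTRL and 1.29 and 1.56 in PC9 YAP1 KO. In HCC4006 they were 0.78 and 1.15 in CTRL and 2.0 and 1.63 in YAP1 KO. HIST1H2AC and HIST1H2BC both rose in 3 of the 4 tests, by 1.82 and 1.04 in PC9 CTRL, 2.35 and 1.06 in PC9 YAP1 KO and 3.24 and 0.57 in HCC4006 YAP1 KO. In the last, HIST1H2BC gave 0.939, 0.84 and 0.912 FPKM with DMSO and 1.53, 1.4 and 2.7 with OT, and missed the threshold without YAP1 KO OT replicate 3 (adjusted p = 0.052). In HCC4006 CTRL, HIST1H2AC rose by 2.28 while HIST1H2BC gave 1.7, 0.771 and 1.59 FPKM with DMSO and 1.11, 1.2 and 1.67 with OT, values that overlap. HIST3H2A and HIST3H2BB both rose in HCC4006 CTRL (2.76 and 1.67), and with OT the difference of YAP1 KO from CTRL there was -0.21 (adjusted p = 0.12) for HIST3H2A and -0.65 (adjusted p = 0.0078) for HIST3H2BB, of which the second passed the threshold. HIST3H2BB was kept in HCC4006 only through its OT libraries, so its rise there is not support on its own. The same holds in HCC4006 for HIST2H2BE and HIST1H2BC, which had fewer than 3 DMSO libraries at 1 FPKM. In PC9 HIST3H2BB was not kept, and its values with OT reached 0.700.

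Annotated read-through past the stem-loop was found in genes that rose and in genes that did not. Of the 19 genes with a run of at least 100 bases, 14 were kept in PC9 and 9 of these rose with OT in CTRL, and 13 were kept in HCC4006 and 10 rose. Of the 7 genes whose transcripts ended within 100 bases of the stem-loop, 5 were kept in PC9 and 2 rose, and 4 were kept in HCC4006 and all 4 rose. Of the 34 genes without a stem-loop in an annotated transcript, 12 were kept in PC9 with 5 rises, and 10 in HCC4006 with 6 rises and 1 fall. In that order of classes the median changes were 0.75, 0.29 and 0.25 in PC9 CTRL and 0.81, 1.29 and 0.72 in HCC4006 CTRL. Over all genes tested, 32.0% were called higher in PC9 CTRL and 45.0% in HCC4006 CTRL. The class counts and medians include the genes named above that were kept only through their OT libraries, so they are not support on their own. These counts compare annotation, not measured 3′ ends, and no test was made between the classes.

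Genes that make and handle histone mRNA and protein were followed in 5 lists, to be read against the 40.9% of all genes called lower with OT in PC9 CTRL and the 36.6% in HCC4006 CTRL. Of 25 S phase genes, all 25 fell in both lines and both genotypes, with a median change of -1.67 in PC9 CTRL and -2.58 in HCC4006 CTRL. In PC9 CTRL and HCC4006 CTRL, in that order, RRM2, a subunit of ribonucleotide reductase, changed by -1.94 and -4.46, CDC6, which loads the replicative helicase, by -2.32 and -3.95, and GINS2, a helicase subunit, by -2.10 and -4.22. MKI67, a proliferation marker, was 14.4 ± 0.553 with DMSO and 6.19 ± 0.458 with OT in PC9 CTRL, and 16.1 ± 1.71 and 1.24 ± 0.214 in HCC4006 CTRL (mean FPKM ± SD, n = 3). Their part in the histone values was not tested.

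Of 15 kept genes for histone mRNA transcription and 3′ end processing, 13 fell and 1 rose in PC9 CTRL, and of 16 kept in HCC4006 CTRL 14 fell and 1 rose, with medians of -0.56 and -0.79. SLBP, which binds the stem-loop printed above, was 92.6 ± 3.57 FPKM with DMSO and 46.1 ± 1.31 with OT in PC9 CTRL, and 104 ± 3.24 and 32.9 ± 4.97 in HCC4006 CTRL. Its change was -0.99 (adjusted p = 1.7e-10) and -1.65 (adjusted p = 2.4e-09). CSTF2, a cleavage factor subunit, and LSM10, a part of the U7 particle that cuts histone mRNA, changed by -0.93 and -0.93 in PC9 and -1.27 and -1.01 in HCC4006.

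Of 12 histone chaperone and acetylation genes, 12 fell in PC9 CTRL and 10 in HCC4006 CTRL, and none rose at the adjusted threshold of limma. ASF1B and CHAF1A, which hand new H3 and H4 to replicated DNA, changed by -1.66 and -1.51 in PC9 and -4.03 and -2.33 in HCC4006. NASP, a carrier of H3 and H4, changed by -1.09 in PC9, and by -1.76 in HCC4006. Of 12 replication-independent histone variant genes, 1 rose and 8 fell in PC9 CTRL, and 3 rose and 7 fell in HCC4006 CTRL. CENPA, the centromeric H3, changed by -1.12 and -3.90, H2AFX by -1.21 and -2.83, and H2AFZ by -1.37 and -2.15.

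The 8 genes for histone mRNA decay were mixed, with 1 rise and 4 falls in PC9 CTRL and 4 rises and 2 falls in HCC4006 CTRL, where 45.0% of all genes were called higher. ERI1, the exonuclease that trims the histone stem-loop, changed by -1.22 and -1.32. ZCCHC6, a uridylyl transferase that marks histone mRNA for decay, changed by 0.48 and 0.40. ZCCHC11, its relative, changed by -0.24 in PC9 and 0.46 in HCC4006.

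With OT, the genotypes differed in some of these lists as well. In PC9, 24 of 25 S phase genes and 9 of 12 chaperone and acetylation genes were lower in YAP1 KO than in CTRL, with no gene of either list higher, against 25.2% lower among all genes. In HCC4006, 10 S phase genes were lower and 4 higher, against 16.4% lower and 27.2% higher among all genes. There 2 of the 12 chaperone and acetylation genes were lower, which is about the share of all genes. The interaction called 24 of 25 S phase genes negative in PC9, against 13.8% of all genes, and 6 negative and 2 positive in HCC4006, against 8.18% and 10.5%. CD68, a lysosomal protein also used as a macrophage marker, was the marker of another cell type that moved most, at 22.4 ± 1.18 FPKM with DMSO and 82.8 ± 1.13 with OT in HCC4006 CTRL. PTPRC, a defining leukocyte marker, was among the 9 markers under 1 FPKM in every library. Of the 6 epithelial markers, 5 rose and 1 fell with OT in PC9 CTRL, and 1 rose and 4 fell in HCC4006 CTRL, where the keratin KRT18 changed by -2.25 and the adhesion protein CDH1 by 0.71.

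**Figure D4:**
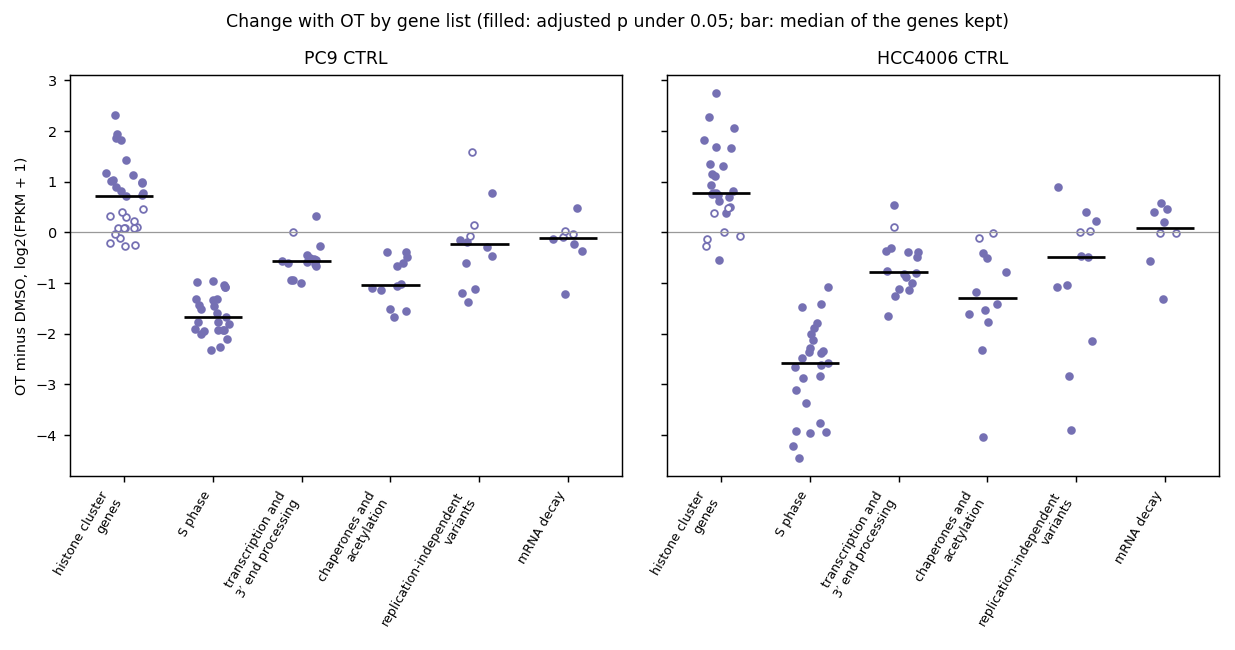
Change with OT in CTRL cells (y axis, OT minus DMSO, log2(FPKM + 1)) for the kept histone cluster genes and 5 gene lists (x axis) in PC9 (left) and HCC4006 (right); each point is 1 gene, filled where the adjusted p is under 0.05, and bars are medians. The histone cluster genes have medians of 0.73 and 0.77, while the S phase genes all lie below 0 with medians of -1.67 and -2.58.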

How the data were processed

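Poly(A)-selected RNA was measured in 24 libraries, and the authors deposited one table of FPKM per gene symbol. Reads were handled with STAR 2.5.1b, Cufflinks 2.2.1 and DESeq2 1.10.1 on hg19 (GRCh37), per the submitters' processing notes, which give no role or order. The gene annotation, the use of strand and the depth are not given in the sources used here. Every column was mapped to 1 sample by its label.

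FPKM were tested as log2(FPKM + 1) with limma 3.58.1 in R 4.3.3 (group means, mean-variance trend, Benjamini-Hochberg adjustment over all genes kept, calls at an adjusted p under 0.05). Genes needed an FPKM of at least 1 in at least 3 libraries of the fit. Each line was fitted on its 12 libraries, and the comparisons between lines on all 24. The fit was tested on simulated data. Unless another tool is named, each adjusted p comes from this fit. On the log2 scale, the residual SD had a median over genes of 0.07 (PC9) and 0.09 (HCC4006).

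The members and gene lists were chosen with earlier results of these data known. Named genes are those with a known polyadenylated transcript, the 5 highest, up to 4 of the largest rises and falls called per comparison, and up to 3 genes per list called in both lines; others named for a contrast in the text were chosen after their values were seen. Sequences came from GENCODE v29 and RefSeq on GRCh38, and were not used to place the hg19 values. Alternatives were a pseudocount of 0.1, no filter, a minimum of 5 FPKM, median-of-ratios scaling, rescaling to the same sum, a replicate block, and leaving out each library in turn.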

Additional observations from a re-analysis of the deposited data

Results flagged for a closer look

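For 9 results the OT response differed between the genotypes of a line by the interaction test. In PC9 these were HIST3H2A (1.04), HIST2H2BE (0.84), HIST2H2AA3 (0.62) and HIST1H2AC (0.54), each larger in YAP1 KO. In HCC4006 they were HIST2H2AC (1.22), HIST2H2AA3 (1.08), HIST1H2AG (1.04) and HIST1H2AC (0.96), larger in YAP1 KO, and HIST3H2A (-0.63), smaller in YAP1 KO. Values are differences of log2 changes.

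For 8 results chosen in the same way the OT response of CTRL cells differed between the lines by the test of that difference. It was larger in HCC4006 for HIST3H2BB (1.36), HIST4H4 (1.11), HIST2H4B (0.95) and HIST3H2A (0.89). It was smaller in HCC4006 for HIST1H3H (-1.39), HIST1H2BC (-1.04), HIST1H2BF (-0.74) and HIST1H3D (-0.74). HIST3H2BB, HIST1H2BF and HIST1H3D had no DMSO library at 1 FPKM in either line, and HIST4H4 had fewer than 3. These genes were kept only with the help of OT libraries, so their calls are not support on their own. The calls of HIST1H2BF and HIST1H3D were lost with a pseudocount of 0.1 (adjusted p = 0.074 and 0.070), and that of HIST1H2BF also without any one of 7 of the 12 CTRL libraries, PC9 DMSO replicate 2 or 3, PC9 OT replicate 2 or 3, HCC4006 DMSO replicate 1 or 2 and HCC4006 OT replicate 2 (adjusted p from 0.064 to 0.098).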

How the results depend on the processing

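With a minimum of 5 FPKM fewer of the histone genes were tested. In PC9 the calls became 9 with OT in CTRL, 9 with OT in YAP1 KO and 5 for YAP1 KO against CTRL under OT, and in HCC4006 9, 8 and 6. The calls became 13 between the lines and 8 for the difference in OT response. With a pseudocount of 0.1 the HCC4006 interaction had 4 calls, and the cause was not tested.

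Leaving out each library in turn gave 16 to 18 calls with OT in PC9 CTRL, 19 to 24 in PC9 YAP1 KO, 1 to 4 for genotype under DMSO, 9 to 16 for genotype under OT and 4 to 7 for the interaction. In the genotype comparison under DMSO in PC9 the majority turned from lower to higher without CTRL DMSO replicate 3, with 3 calls. In HCC4006 the ranges were 17 to 20, 21 to 23, 2 to 6, 9 to 13 and 4 to 8. Between the lines they were 19 to 23, and 11 to 14 for the difference in OT response.

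The replicate numbers did not pair the samples. Correlations of same-numbered libraries' deviations ran from -0.26 to 0.16 in PC9 and from -0.15 to 0.24 in HCC4006, and 4 and 7 of 12 libraries correlated best with their own number. With the replicate block the calls, in the order of the comparisons above, were 16, 22, 5, 14 and 5 in PC9, 20, 21, 4, 13 and 8 in HCC4006, and 19 and 15 between the lines. Signs under these settings were checked for the genes chosen by the naming rule alone. Among them, no change that passed the test turned its sign. Some changes that did not pass took either sign, such as HIST1H3H with OT in HCC4006 CTRL (-0.98 to 0.02) and HIST1H2BJ with OT in PC9 CTRL (-0.21 to 0.09). Depth is not known, so what it limits cannot be stated beyond the scatter of genes under 1 FPKM.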
